A study of Mus musculus with 75 samples.

Results

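Elavl4, Snap25, Uchl1, Tubb3, Prph, Stmn2 and Syt1 are genes that nearly all neurons express and that glia express little or not at all. They were read here as a gauge of neuronal RNA in samples that the labels call enteric glia. The genes were chosen by symbol, as the 7 rows with these names among the 21051 symbols of the table for untreated and 2 h samples and among the 21076 symbols of the table for 24 h samples. All 7 passed the filter on low counts in each of the 3 experiments.

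Each of the 75 libraries is the RNA of 1 sample from 1 gut region and 1 layer of a mouse, in 16 groups. All mice, controls included, carry a transgenic green fluorescent reporter (eGFP), and the series' design text calls the mice of the first experiment adult; ages are not given in the sources used here. Untreated reporter mice gave the myenteric plexus (MP), which lies between the muscle layers, and the submucosal plexus (SMP), which lies beneath the mucosa. There were 5 colon and 6 small-intestinal (SI) libraries per plexus. The 2 h experiment took the MP of reporter mice after 1 injection of LPS (lipopolysaccharide, a bacterial endotoxin, 2 mg/kg into the peritoneum) or of PBS. Each region and treatment had 4 libraries. The 24 h experiment took the MP after the same injections in Gpr37WT reporter mice (WT) and in Gpr37-/- reporter mice (KO), which lack the glial receptor Gpr37. In the SI the WT groups held 6 PBS and 4 LPS libraries and the KO groups 4 PBS and 5 LPS. In the colon the WT groups held 4 PBS and 5 LPS libraries and the KO groups 5 PBS and 4 LPS. How the cells were isolated is not given in the sources used here.

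Enteric neurons and glia lie side by side in the ganglia of both plexuses, so glial preparations can carry neuronal RNA. Among the 7 genes, Elavl4 (HuD) encodes an RNA-binding protein that stabilises neuronal mRNAs. Tubb3 encodes neuronal beta-tubulin, Prph the intermediate filament peripherin of peripheral neurons, and Stmn2 a regulator of microtubules in growing axons. Snap25 encodes a SNARE protein of synaptic vesicle fusion and Syt1 the calcium sensor that triggers it. Uchl1 (PGP9.5) encodes a ubiquitin hydrolase that is abundant in neurons. Endocrine cells of the gut epithelium also use parts of this secretory machinery.

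On the GRCm38 assembly with GENCODE M21 annotation, all 7 are protein-coding genes on different chromosomes. Elavl4 lies at chr4:110203722-110351909, Snap25 at chr2:136713453-136782428 and Uchl1 at chr5:66676091-66687234. Tubb3 lies at chr8:123411424-123422015 and Prph at chr15:99055174-99058978. Stmn2 lies at chr3:8509360-8561606 and Syt1 at chr10:108497650-109010982. Elavl4 and Syt1 are on the minus strand and the others on the plus strand. Uchl1 overlaps the antisense gene Uchl1os at its start, and Tubb3 lies within a longer gene model of the same strand, Gm20388. Syt1 holds Gm5136 and Gm47477 on its own strand and Gm47472 on the other, and Snap25 holds the pseudogene Gm14053 on the other strand. The use of strand and the treatment of shared reads in counting are not given in the sources used here, so the counts of these genes carry that uncertainty.

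Because the 7 genes moved together across sites, their promoters were compared over the 250 bases before the start site in RefSeq (GRCm38.p6). A window was found for 5 of the 7 (Elavl4, Uchl1, Tubb3, Syt1 and Prph), and for genes with several starts the first listed was taken. Motifs were searched on both strands. The GC box GGGCGG was found in 3 of the 5 windows and in 32.9% of 27025 promoters, the CCAAT box CCAAT in 2 and in 34.5%, and the TATA box TATAAA in 1 and in 13.0%. The E-box CANNTG was found in none of the 5 and in 66.0% of promoters, and TTCAGCACC, the left part of the RE1 element of neuronal genes, in none of the 5 and in 0.285%. The 3 windows that hold a match are shown, written 5′ to 3′ on the gene's own strand with the matched bases in capitals.
Prph, chr15:99054924-99055173, plus strand: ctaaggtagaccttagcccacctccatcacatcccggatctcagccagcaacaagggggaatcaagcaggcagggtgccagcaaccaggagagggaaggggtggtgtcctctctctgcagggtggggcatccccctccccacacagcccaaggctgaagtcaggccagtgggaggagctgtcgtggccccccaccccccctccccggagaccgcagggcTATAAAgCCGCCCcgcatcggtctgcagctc
Tubb3, chr8:123411303-123411552, plus strand: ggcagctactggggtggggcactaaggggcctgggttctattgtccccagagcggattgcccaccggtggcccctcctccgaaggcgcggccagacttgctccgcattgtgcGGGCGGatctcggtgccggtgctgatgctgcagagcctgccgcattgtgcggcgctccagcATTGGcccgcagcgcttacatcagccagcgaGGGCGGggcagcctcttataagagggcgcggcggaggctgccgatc
Syt1, chr10:109010976-109011225, minus strand: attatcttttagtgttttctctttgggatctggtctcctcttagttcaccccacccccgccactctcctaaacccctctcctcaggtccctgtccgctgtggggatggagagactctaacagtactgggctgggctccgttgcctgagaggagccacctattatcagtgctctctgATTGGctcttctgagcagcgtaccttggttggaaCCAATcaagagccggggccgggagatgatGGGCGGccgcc
In Prph the TATA box begins 31 bases before the start and a GC box on the reverse strand follows it at 24 bases. Tubb3 has GC boxes at 138 and 46 bases and a reverse CCAAT box at 77 bases, and Syt1 has a GC box at 11 bases and CCAAT boxes at 74 and 40 bases. No motif was shared by the 5 windows.

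Levels are given as CPM, counts relative to the total of the library, scaled by TMM factors within each experiment. Library totals ran from 2547300 to 9002550 counts in untreated mice, from 1990740 to 7883250 at 2 h and from 2882540 to 33283300 at 24 h. A count of 3 in a library corresponds to 0.329 to 1.11 CPM in untreated mice. S100b, a calcium-binding protein that marks glia, averaged 452 CPM in the SI MP and 393 CPM in the colon MP of untreated mice, but 75.1 and 44.1 CPM in the colon and SI SMP. The KO label was checked by Gpr37, which had 3 or fewer counts in 17 of 18 KO libraries and in 4 of 19 WT libraries. Those 4 were LPS libraries, from both regions of mouse 3 and the colon of mice 5 and 8, and whether their labels are right was not tested.

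Counts of these neuronal genes were found in every library. Snap25, Uchl1, Tubb3, Prph and Stmn2 had counts in 75 of 75 libraries, Elavl4 in 72 and Syt1 in 71. Together the 7 genes took from 0.00377% to 0.262% of a library's counts in untreated mice, from 0.0129% to 0.419% at 2 h and from 0.0184% to 0.559% at 24 h. In bulk samples the number of neurons, the RNA per neuron and low expression in other cells cannot be told apart.

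**Figure D1:**
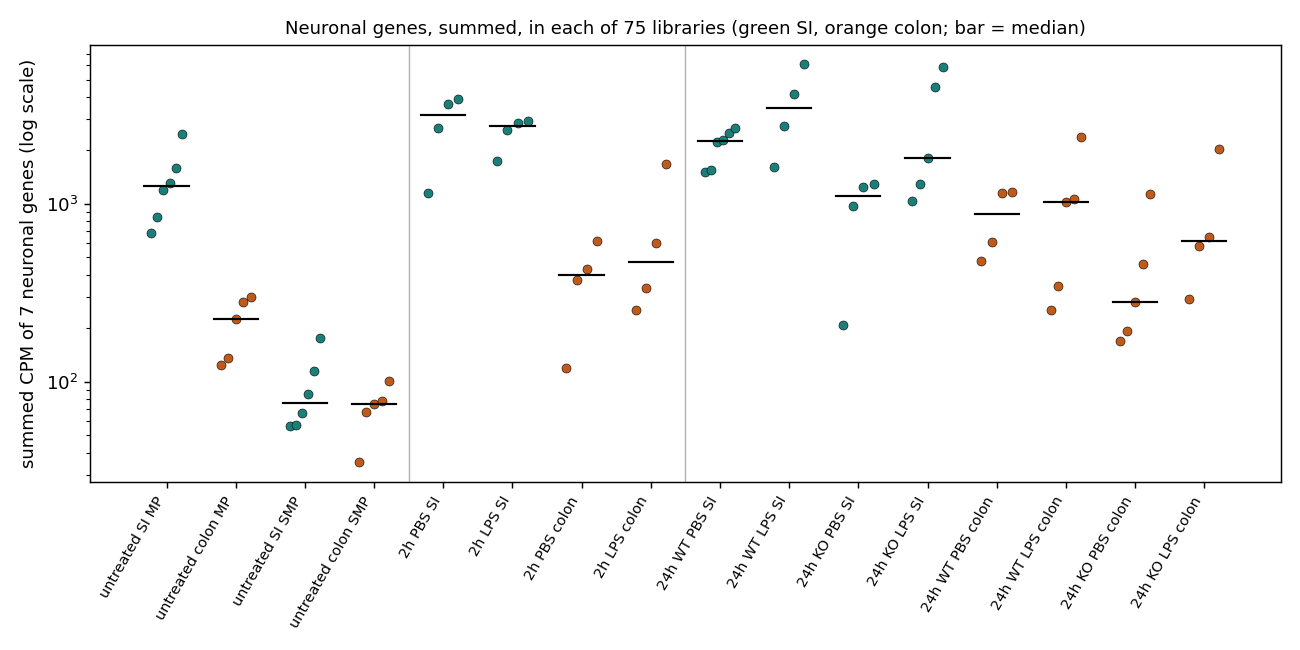
Summed CPM of the 7 genes (log axis) in each of 75 libraries by group, with SI in green, colon in orange and a bar at the median. Untreated SMP libraries of both regions lie at 35.5 to 177 CPM, and untreated SI MP libraries at 687 to 2462 CPM.

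In untreated mice the summed level was highest in the SI MP, at 687, 1257 and 2462 CPM (lowest, median and highest of 6 libraries). The colon MP followed at 282, 300, 137, 224 and 124 CPM in the libraries M1, M2, M3, F2 and F3. The SI SMP gave 56.5, 76.2 and 177 CPM (lowest, median and highest of 6), and the colon SMP 35.5, 101, 74.9, 67.6 and 78.2 CPM in M1, M3, F1, F2 and F3. The SI MP stood above all other sites without overlap, the colon MP above the colon SMP without overlap, and the other neighbouring sites in this order overlapped. Against the summed level of 10 glial genes, the 7 neuronal genes came to a median of 10.8% in the SI MP, 1.93% in the colon MP, 7.22% in the SI SMP and 3.04% in the colon SMP.

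The first comparison was between colon and SI within the MP of untreated mice. All 7 genes were lower in the colon, with log2 changes from -1.73 for Uchl1 to -3.83 for Elavl4. Elavl4 was at 6.09, 16.6, 7.89, 9.65 and 1.23 CPM in colon M1, M2, M3, F2 and F3, against 54.9, 93.98 and 238 CPM (lowest, median and highest of 6) in the SI. Uchl1 was at 60.02, 55.3, 35.4, 63.2 and 46.4 CPM in the colon, in the same order, against 104, 151 and 329 CPM in the SI. Every colon library lay below every SI library for each of the 7 genes, whereas 1.96% of all genes showed such a separation. Stmn2 was at 124, 91.6, 52.5, 60.7 and 26.3 CPM in the colon against 165, 265 and 543 CPM in the SI. The mean SI level was 14.1 times the colon level for Elavl4, 13.0 times for Syt1 and 10.1 times for Prph, but 3.31 times for Uchl1 and 4.12 times for Stmn2. Snap25 and Tubb3 lay between, at 8.22 and 8.96 times.

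By edgeR's quasi-likelihood test (Benjamini-Hochberg adjusted over 14090 genes) all 7 were called lower in the colon MP (called: adjusted p under 0.05), beside 3.19% of all genes called and 1.53% called lower. Prph, with a change of -3.34 ± 0.53 (log2, SE), had the smallest adjusted p of the 7 in this edgeR test (0.00199), and Syt1, with -3.70 ± 0.93, the largest (0.0326). The median change of the 7 was -3.17, against 0.01 over all genes. Syt1 was the gene whose call rested on single libraries: without colon F3, M1, M2 or M3, or without SI F1, its edgeR adjusted p was 0.0665, 0.0663, 0.0537, 0.0632 and 0.0679. With the replicate number as a block, a number the labels do not tie to an animal, the edgeR adjusted p of Syt1 was 0.0925 and the other 6 were called.

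Other neuronal genes were taken from 4 lists written for this work. Of 17 vesicle release genes 4 were called lower and 0 higher (Vamp1, -2.21, Cplx1, -3.29, Syt4, -3.23, and Rab3c, -3.29), while the most abundant, Vamp2, changed by -0.42 without passing. Of 10 tested genes of the neuronal cytoskeleton 1 was called (Stmn3, -2.78), of 6 tested RNA-binding genes 2 (Celf4, -2.15, and Elavl2, -4.36), and of 10 tested enteric neuron identity genes 2 (Slc18a3, the vesicular acetylcholine transporter, at -5.14 and Ret at -3.51). All changes are log2, by the same edgeR test, and the median changes of the 4 lists were -1.27, -1.26, -2.36 and -2.09. Among 10 glial genes, 1 was called lower in the colon MP (Fabp7, -1.29), and S100b changed by -0.20 (edgeR adjusted p = 0.87). Some genes of other cell types were called higher in the colon MP: 3 of 7 smooth muscle genes (Actg2, Tagln and Cnn1), 3 of 4 fibroblast genes and 1 of 3 genes of the interstitial cells of Cajal. The smooth muscle genes summed to 7117 to 22929 CPM in the colon MP and 1199 to 8432 CPM in the SI MP, which overlap. The fibroblast sums (1617 to 8955 against 855 to 1575 CPM) and those of the interstitial cells of Cajal (291 to 1002 against 94.9 to 199 CPM) did not overlap. Of 7 enteroendocrine genes 1 was called lower in the colon MP, and the sums of that list overlapped. The mitochondrial share of counts was 5.35% to 16.5% in the colon MP and 11.6% to 18.8% in the SI MP. The part of these differences in the result was not tested.

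**Figure D2:**
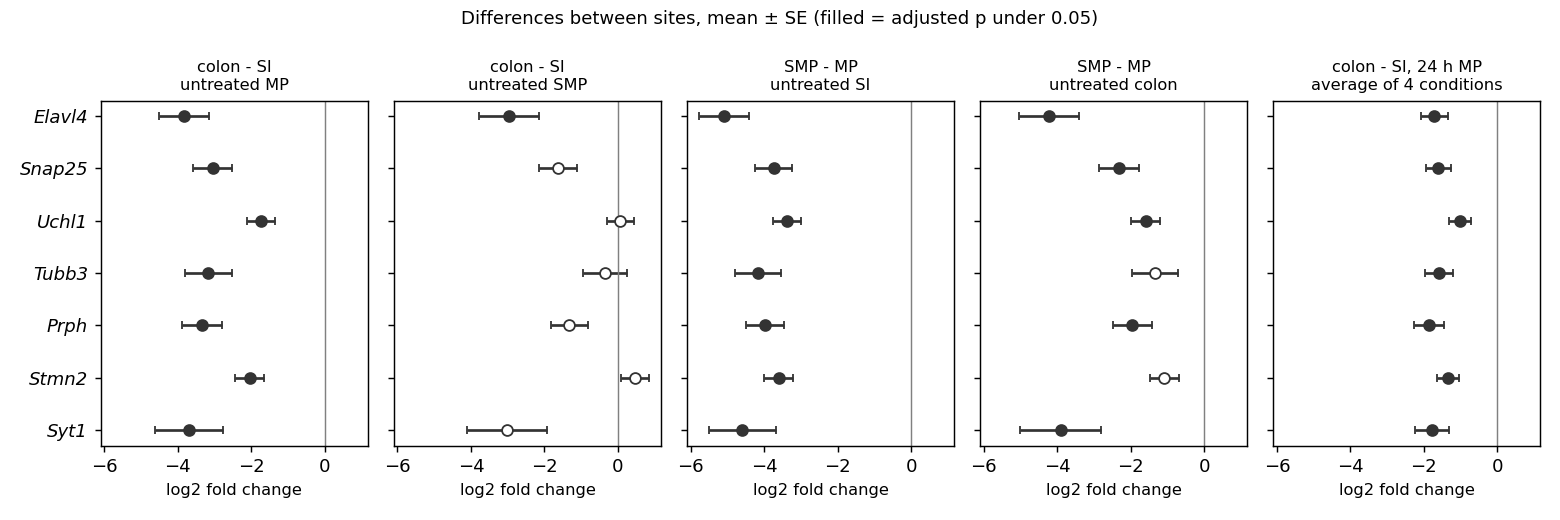
Log2 fold change ± SE of the 7 genes for 5 comparisons between sites, with filled points where the adjusted p was under 0.05. All 7 points are filled and left of 0 for colon against SI in the untreated MP, for SMP against MP in the SI and for the 24 h average, and 1 is filled for colon against SI in the SMP.

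The second comparison was between the plexuses of untreated mice. In the SI all 7 genes were lower in the SMP, with log2 changes from -3.38 (Uchl1) to -5.09 (Elavl4). Elavl4 was at 0.934, 2.29 and 8.57 CPM in the SI SMP (lowest, median and highest of 6), Uchl1 at 5.29, 14.5 and 27.1 CPM and Syt1 at 0.189, 1.02 and 11.5 CPM. Every SMP library lay below every MP library of the SI for each of the 7 genes, against 12.1% of all genes. Tubb3 spread widely within the SI SMP, from 2.08 to 34.1 CPM with a median of 4.65 CPM, and its highest library was F3. By edgeR's quasi-likelihood test (Benjamini-Hochberg adjusted) the 7 adjusted p-values ran from 8.88e-07 (Stmn2) to 0.000389 (Syt1). The plexuses of the SI differed in much else too, with 43.5% of all genes called and 21.2% called lower in the SMP. The median change of the 7 was -3.97, against 0.06 over all genes.

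In the colon 5 of the 7 genes were called lower in the SMP, with 21.8% of all genes called and 11.1% called lower. Elavl4 (-4.23 ± 0.82), Syt1 (-3.91 ± 1.10), Snap25 (-2.32 ± 0.54), Prph (-1.96 ± 0.53) and Uchl1 (-1.60 ± 0.39) passed, on the log2 scale with SE. Stmn2 changed by -1.09 ± 0.39 (edgeR adjusted p = 0.0516) and Tubb3 by -1.35 ± 0.63 (0.129), and these did not pass. Elavl4 had no count in 3 of 5 colon SMP libraries and 13 counts in all, and Syt1 likewise none in 3 of 5 and 11 in all, so their fold changes rest on few reads. Without colon MP F2 the edgeR adjusted p of Syt1 was 0.0833. In a fit of the colon MP and SMP groups alone, Elavl4 and Syt1 did not pass the filter and 2 of the 7 were called, Snap25 and Uchl1.

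Stmn2 and Uchl1 kept a clear level in the colon SMP. Stmn2 was at 13.3, 46.1, 45.7, 29.3 and 31.7 CPM in M1, M3, F1, F2 and F3, and Uchl1 at 7.40, 29.1, 13.2, 14.8 and 21.1 CPM. Only Uchl1 separated the colon SMP from the colon MP in every library, where 7.15% of all genes lay lower in this way. Levels were also taken per kilobase of the merged exons of all annotated transcripts, from 1632 bases in Uchl1 to 5602 in Stmn2 and 8338 in Syt1. Merged exons can be longer than the transcripts in use, so comparisons between genes on this scale are approximate. Uchl1 took 40.8% of the summed level of the 7 genes in the colon SMP and 43.5% in the colon MP, but 24.4% in the SI MP. Stmn2 took 24.0%, 16.4% and 11.8% in the same 3 groups. Elavl4 and Syt1 took 0.235% and 0.166% in the colon SMP, against 4.92% and 2.23% in the SI MP. These are descriptions of shares within a library, with no test.

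The region by plexus interaction asked whether the colon to SI difference was the same in both plexuses. Within the SMP, 1 of the 7 was called lower in the colon by edgeR, Elavl4 (log2 change of -2.97 ± 0.81, edgeR adjusted p = 0.0351), with 5.18% of all genes called and 1.36% called lower. DESeq2 called Elavl4, Snap25 and Syt1. In an edgeR fit of the SMP groups alone, Elavl4 and Syt1 did not pass the filter on low counts and Snap25 was called (adjusted p = 0.0345). Without colon SMP F1, F2, M1 or M3, or without SI SMP F3 or M3, the call of Elavl4 was lost, with an edgeR adjusted p of 0.0713, 0.0777, 0.058, 0.0997, 0.099 and 0.0684. The fit without colon SMP F1 called Syt1 and not Elavl4. Snap25 was lower in every colon than in every SI library of the SMP, at 3.38 to 7.79 CPM against 8.96 to 26.9 CPM, where 2.29% of all genes lay lower in this way, with an edgeR adjusted p of 0.071. It was the only member of the 7 to do so. Uchl1 (0.06 ± 0.37) and Stmn2 (0.47 ± 0.38) showed changes near 0 on the log2 scale. In the interaction itself Stmn2 was called (2.51 ± 0.54, edgeR adjusted p = 0.0212), with 1.19% of all genes called. With the replicate number as a block the edgeR adjusted p of Stmn2 was 0.0657. The other 6 genes had positive estimates, from 0.68 to 2.82, that did not pass, and DESeq2 called 3 of the 7. With 1 library left out the estimate fell as low as -0.57 for Elavl4 and -1.83 for Syt1, while the rest stayed positive.

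Genes of other cell types differed between the plexuses in both directions. The summed level of 7 enteroendocrine genes was 191 to 1844 CPM in the SI SMP and 6.46 to 1517 CPM in the colon SMP, against 37.3 to 266 and 0.327 to 550 CPM in the MP of SI and colon. Chgb, which encodes a protein of endocrine secretory granules, averaged 338 CPM in the SI SMP and 331 CPM in the colon SMP, against 74.3 and 2.73 CPM in the MP of SI and colon. Of the 7 enteroendocrine genes 5 were called higher in the SI SMP and 2 in the colon SMP. Over all 14090 genes 3142 were called higher in the SI SMP and 1502 in the colon SMP. The 6 macrophage genes summed to 2741 to 16178 CPM in the SI SMP against 170 to 2681 CPM in the SI MP, and all 6 were called higher in both regions, as were 4 of 4 lymphocyte genes. In the colon the macrophage sums of SMP and MP overlapped (181 to 8687 against 124 to 658 CPM). So did the lymphocyte sums there (1.90 to 208 against 0 to 3.63 CPM). Of 6 epithelial genes 6 were called higher in the SI SMP and 1 in the colon SMP. Lower in the SMP were 7 of 7 smooth muscle genes in the SI and 6 of 7 in the colon, 3 of 3 mesothelial genes in both, 2 of 3 genes of the interstitial cells of Cajal in the SI and 3 of 3 in the colon, and 3 of 3 endothelial genes in the SI and 0 in the colon. The smooth muscle genes summed to 75.9 to 1084 CPM in the SI SMP and 806 to 3302 CPM in the colon SMP, and the mesothelial genes to at most 0.39 CPM in either SMP. Glial genes fell with the neuronal ones: 10 of 10 were called lower in the SI SMP and 6 of 10 in the colon SMP, by the edgeR test. Of the neuronal lists in the SI SMP, 13 of 17 vesicle release genes, 8 of 10 tested cytoskeletal genes, 4 of 6 tested RNA-binding genes and 7 of 10 tested identity genes were called lower. The mitochondrial share of counts was also lower in the SMP, at 2.84% to 9.43% against 5.35% to 18.8% in the MP. The part of other cells and of RNA quality in the levels of the 7 genes was not tested.

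**Figure D3:**
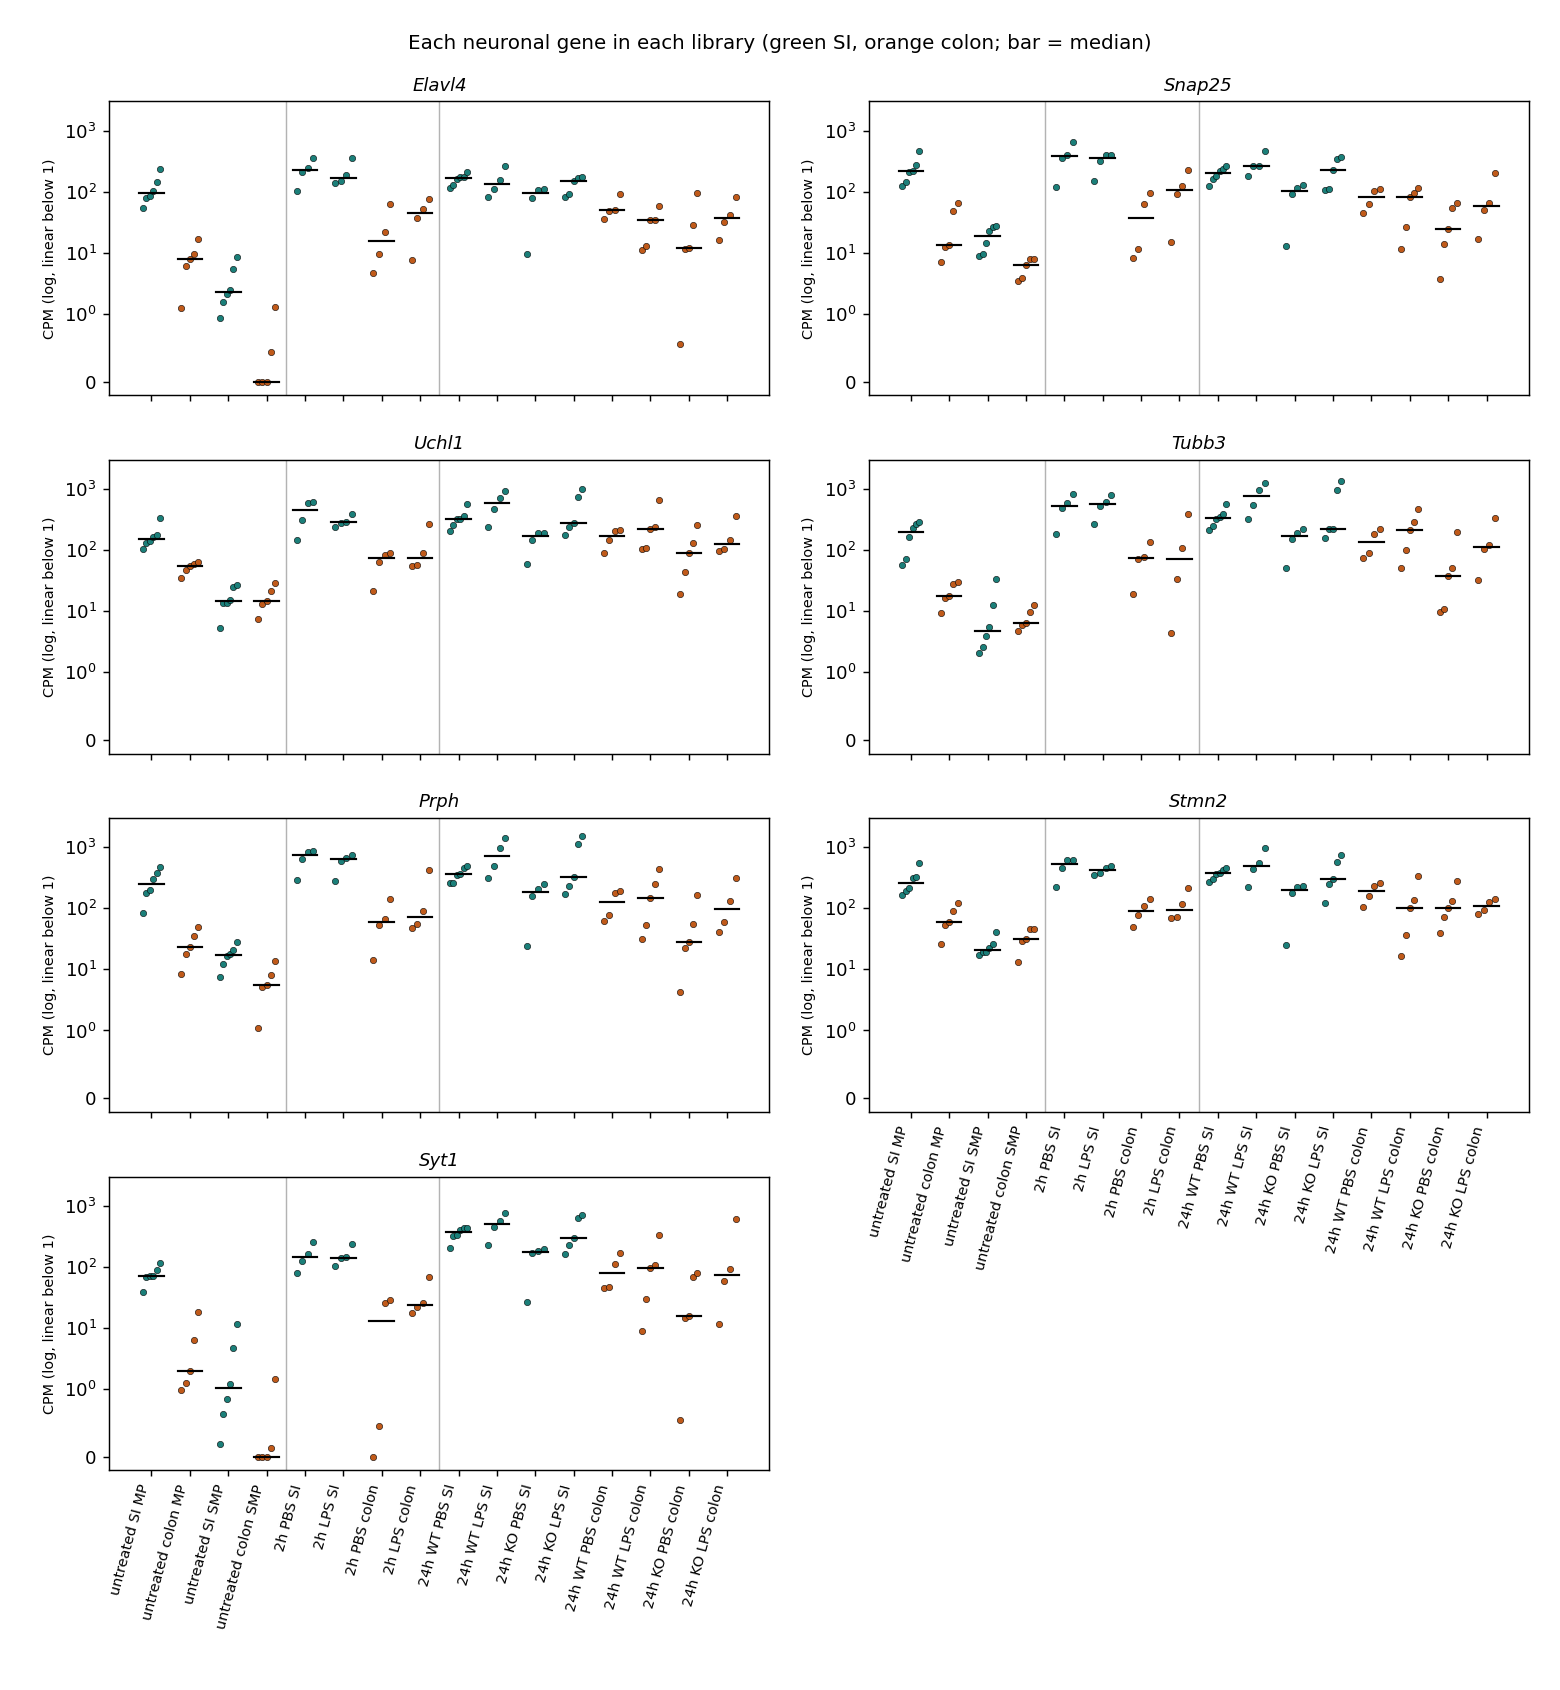
CPM of each gene in each library by group (log axis, linear below 1), with SI in green, colon in orange and a bar at the median. Elavl4 and Syt1 reach 0 in 3 of 5 untreated colon SMP libraries, while Stmn2 stays at 13.3 CPM or above there.

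At 2 h the colon again lay below the SI. After PBS the summed level was 429, 621, 120 and 372 CPM in the 4 colon libraries and 3903, 3631, 1150 and 2661 CPM in the 4 SI libraries. Each of the 7 genes was lower in every colon library than in every SI library, against 4.95% of all genes. All 7 estimates were negative, from -2.37 (Stmn2) to -3.49 (Syt1) on the log2 scale. By edgeR's quasi-likelihood test (Benjamini-Hochberg adjusted) 1 gene was called, Stmn2 (-2.37 ± 0.41, adjusted p = 0.0284), where 0.221% of all 13107 genes were called and 0.137% called lower. The adjusted p of the other 6 ran from 0.0617 to 0.213, and DESeq2 called all 7. The smooth muscle genes summed to 19467 to 72390 CPM in the PBS colon and 2369 to 15416 CPM in the PBS SI. Lower in every colon than in every SI library, like the 7 genes, were the sums of 7 enteroendocrine genes (11.0 to 46.4 against 72.5 to 280.4 CPM) and of 3 mesothelial genes (0 to 90.7 against 285 to 650.1 CPM). By edgeR 0 genes of these 3 lists were called, with 6 of 7, 1 of 3 tested and 3 of 3 at an unadjusted p under 0.05, beside 10.6% of all genes. The mitochondrial share was 1.76% to 8.04% in the PBS colon and 7.08% to 10.9% in the PBS SI. The part of these differences in the result was not tested. Without colon library 1 or 3, or without SI library 1, 2 or 4, the edgeR adjusted p of Stmn2 was 0.0884, 0.0661, 0.0969, 0.0964 and 0.0706.

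After LPS at 2 h the summed level was 1674, 252, 600 and 337 CPM in the colon and 2912, 2602, 1747 and 2845 CPM in the SI. The sums did not overlap, and Elavl4, Stmn2 and Syt1 each separated the regions in every library, against 3.62% of all genes. None of the 7 was called in edgeR's test of colon against SI after LPS, in which 0.061% of all genes were called, while 6 had an unadjusted p under 0.05, as did 10.5% of all genes, and DESeq2 called 2 of the 7 and 387 genes in all. The enteroendocrine sums did not overlap either (0.802 to 96.1 CPM in the colon against 121 to 285 CPM in the SI). Nor did the smooth muscle sums, which were higher in the colon (19427 to 59644 CPM against 1264 to 18061 CPM). The part of these lists was not tested. Colon library 1 after LPS stood apart from the other 3, with 428 CPM of Prph where the next highest had 90.0 CPM.

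Between LPS and PBS at 2 h no change in the 7 genes passed. In the SI Prph was at 834, 869, 297 and 635 CPM after PBS and at 760, 607, 279 and 662 CPM after LPS. In the colon it was at 67.4, 141, 14.0 and 53.8 CPM after PBS and at 428, 47.7, 90.0 and 55.4 CPM after LPS. The groups overlapped for all 7 genes in both regions. The median log2 change was -0.19 in the SI (range -0.45 to 0.10) and 0.86 in the colon (0.34 to 1.36), and without colon LPS library 1 the latter fell to 0.08. By the edgeR test 0 of 7 were called in either region, with 1.1% of all genes called in the SI and 0.778% in the colon. No member had an unadjusted p under 0.05 in edgeR, and DESeq2 called 0. The treatment by region interaction called 0 of the 7 and 0% of all genes in edgeR, again with 0 at an unadjusted p under 0.05 and 0 by DESeq2.

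**Figure D4:**
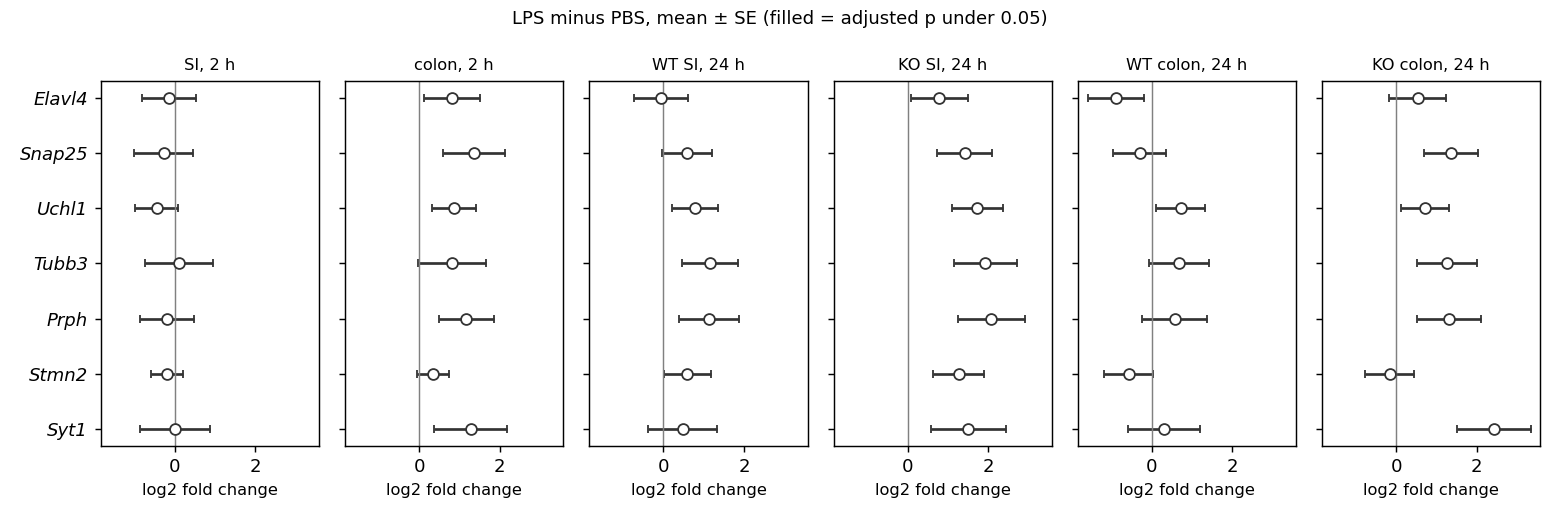
Log2 fold change ± SE of the 7 genes for LPS against PBS in the 6 combinations of region, time and genotype, with filled points where the adjusted p was under 0.05. No point is filled, and the KO SI at 24 h has the highest median, 1.51.

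At 24 h the order of the 8 groups by median summed level was WT LPS SI (3453 CPM), WT PBS SI (2258), KO LPS SI (1800), KO PBS SI (1110), WT LPS colon (1020), WT PBS colon (877), KO LPS colon (615) and KO PBS colon (282). Neighbours in this order overlapped in each of the 7 cases. The spread within groups was large. The WT LPS SI gave 4172, 6076, 2734 and 1603 CPM in mice 3, 8, 16 and 13, and the KO LPS SI 1800, 1032, 5912, 4558 and 1298 CPM in mice 11, 17, 10, 6 and 21. The KO PBS SI gave 1248, 1301, 972 and 208 CPM in mice 12, 15, 20 and 7. In the WT PBS SI the lowest, median and highest of 6 were 1519, 2258 and 2657 CPM.

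The 24 h mice allowed a comparison of regions within an animal, since 15 of them gave both a colon and an SI library. In 14 of 15 the SI was higher for each of the 7 genes. The median ratio of SI to colon was 2.84 for the summed level, and by gene it ran from 2.21 (Uchl1) and 2.44 (Stmn2) to 3.56 (Elavl4) and 5.22 (Syt1). The exception was mouse 7 (KO, PBS), with 208 CPM in the SI and 1130 CPM in the colon. Hoxa10, a gene of the caudal gut, had 0 counts in its SI library and 72 in its colon library, which goes with the region labels. Over the 24 h libraries the median was 0 counts in the SI and 242.5 in the colon. WT LPS colon 5 had 0, however, KO LPS colon 2 had 2 and WT PBS SI 14 had 32, and whether those labels are right was not tested. The SI library of mouse 7 held 17863 CPM of the 10 glial genes, the most of any 24 h library, and its neuronal sum came to 1.16% of that.

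**Figure D5:**
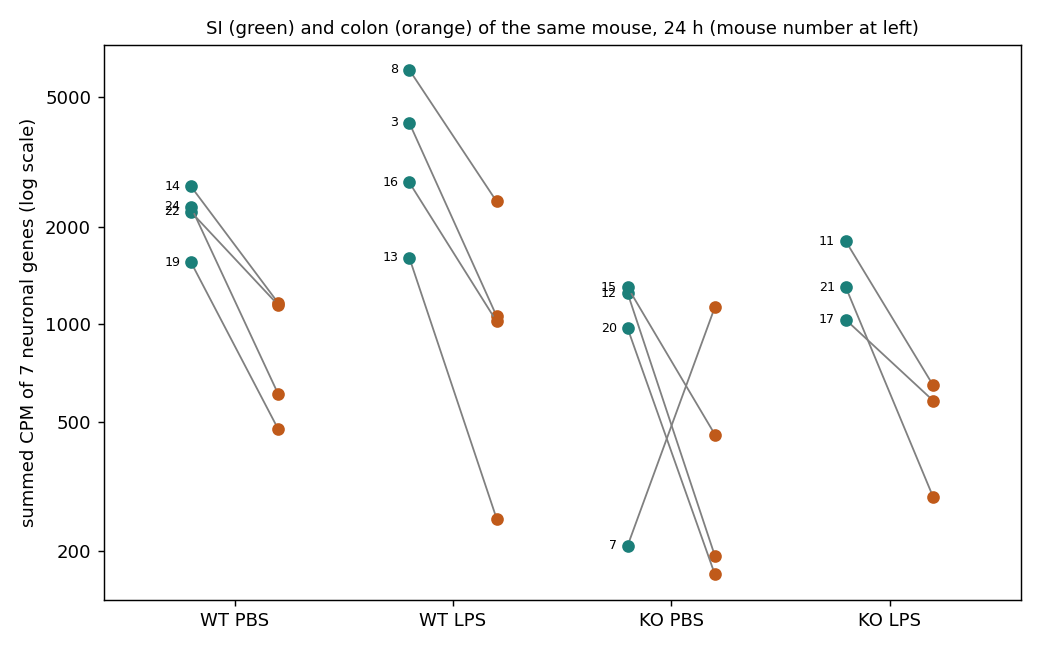
Summed CPM of the 7 genes (log axis) in the SI (green) and colon (orange) of 15 mice at 24 h, joined by mouse and grouped by genotype and treatment. In 14 mice the line falls from SI to colon, and in mouse 7 it rises from 208 to 1130 CPM.

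Averaged over the 4 combinations of genotype and treatment, a contrast chosen after the data were seen, all 7 genes were called lower in the 24 h colon. The log2 changes were -1.71 ± 0.36 for Elavl4, -1.60 ± 0.34 for Snap25, -1.03 ± 0.30 for Uchl1 and -1.59 ± 0.38 for Tubb3 (SE). Those of Prph, Stmn2 and Syt1 were -1.86 ± 0.41, -1.34 ± 0.31 and -1.78 ± 0.46. By edgeR's quasi-likelihood test (Benjamini-Hochberg adjusted) the adjusted p ran from 0.00255 (Elavl4) to 0.031 (Uchl1), with 7.72% of all 14903 genes called and 5.16% called lower. The call of Uchl1 was lost in 10 of the 37 fits that left out 1 library, where 6 of the 7 remained called. These were the fits without KO LPS colon 11 or 21, KO LPS SI 10, KO PBS colon 12, KO PBS SI 12 or 15, WT LPS SI 8, WT PBS colon 19 or 24, or WT PBS SI 14, with an edgeR adjusted p of Uchl1 from 0.0504 to 0.0603. Of the other neuronal lists, edgeR called lower 13 of 17 vesicle release genes, 4 of 11 cytoskeletal genes, 4 of 8 RNA-binding genes and 8 of 13 identity genes, among them Gal, the neuropeptide galanin (-2.97), and Slc18a3 (-2.63). Of 10 glial genes 1 was called, Entpd2, which was higher in the colon (1.02), and the glial median was 0.02. Of the mesothelial genes 3 of 3 were called lower in the colon too, with sums of 471 to 2280 CPM in the WT PBS SI against 0.193 to 62.8 CPM in the WT PBS colon. The 7 enteroendocrine genes, of which 6 were tested and 0 called, summed to 97.7 to 304 CPM in the WT PBS SI against 15.5 to 51.7 CPM in the colon, without overlap. Their sums overlapped in the other 3 conditions, with medians of 226 against 33.7 CPM in WT LPS, 115 against 8.11 CPM in KO PBS and 189 against 30.4 CPM in KO LPS mice. The 4 fibroblast genes, of which 0 were called, summed to 1225 to 9518 CPM in the WT PBS SI against 10126 to 17661 CPM in the colon, and their regions overlapped in the other 3 conditions. In WT LPS mice the sums were 597 to 8684 against 281 to 8203 CPM, in KO PBS mice 203 to 10125 against 998 to 13408 CPM and in KO LPS mice 1263 to 6950 against 1100 to 14053 CPM. Their part in the result was not tested.

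Taken 1 condition at a time, the region difference passed the edgeR threshold for 0 of the 7 genes. The median changes of the 7 genes were -1.29 in WT PBS, -2.11 in WT LPS, -1.38 in KO PBS and -1.64 in KO LPS, and all 28 estimates were negative. Without colon 7 the KO PBS median was -2.39 and without colon 20 it was -0.998, while within the 3 KO PBS libraries of mice numbered 10 or below it was 1.76 (edgeR, 0 of 7 called), and without colon 2 the KO LPS median was -2.41. In these edgeR tests 0.141%, 0.262%, 0.0805% and 0.0738% of all genes were called. The number of the 7 with an unadjusted p under 0.05 was 2, 6, 2 and 6, beside 6.72%, 14.5%, 6.66% and 10.0% of all genes. DESeq2 called 0, 3, 0 and 0 of the 7, and 183, 697, 161 and 329 genes in all. In WT PBS mice, Elavl4, Snap25, Prph, Stmn2 and Syt1 separated the regions in every library, against 2.96% of all genes. In WT LPS mice Elavl4 and Snap25 did so, against 2.46% of all genes, and in KO PBS and KO LPS mice 0 of the 7, against 1.23% and 2.21%. In a fit of the WT PBS groups alone, 4 of the 7 were called, among 352 genes in all, and in such fits of the other 3 conditions 0 of the 7 and 0 genes. Without WT LPS colon 8, which had the highest sum of its group (2389 CPM), 1 was called in WT LPS. With the mouse as a block 0 of the 7 were called in each condition.

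LPS against PBS at 24 h changed none of the 7 genes beyond the threshold in either region or genotype. Syt1 in the WT SI, for example, was at 202, 369 and 430 CPM after PBS (lowest, median and highest of 6) and at 551, 759, 439 and 225 CPM after LPS. In the KO SI it was at 195, 182, 167 and 26.1 CPM after PBS and at 301, 225, 700, 640 and 162 CPM after LPS. In both genotypes the treatment groups of the SI overlapped. By edgeR 0 of 7 were called in the WT SI (median log2 change 0.59), WT colon (0.30), KO SI (1.51) and KO colon (1.26), where 7.17%, 7.96%, 0.718% and 0.718% of all genes were called. The number with an unadjusted p under 0.05 was 0, 0, 4 and 2, beside 21.7%, 24.8%, 11.5% and 12.4% of all genes, and DESeq2 called 0 of the 7 in all 4. Without LPS colon 8 the WT colon median was -0.59 and without PBS colon 22 it was 0.75, and without LPS colon 2 the KO colon median was 0.45. Without LPS SI 8 the WT SI median was 0.27. In a fit of the WT SI groups alone, Tubb3 (1.23) and Prph (1.19) were called higher, with edgeR adjusted p of 0.0428 and 0.0498. That fit also called more genes in all than the fit over all groups, with the number given at the end of the last section. The genotype by treatment interaction called 0 of the 7 and 0% of all genes in the SI, and likewise 0 of the 7 and 0% in the colon, with 0 at an unadjusted p under 0.05 and 0 by DESeq2.

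The LPS libraries of the SI divided by mouse number, a division drawn with these levels already seen. Mice numbered 10 or below had summed levels of 4172 to 6076 CPM in the WT and 4558 to 5912 CPM in the KO, and mice numbered 11 or above 1603 to 2734 and 1032 to 1800 CPM. After PBS the SI did not divide in this way, and the 1 low-numbered library had 208 CPM in the KO, against 972 to 1301 CPM, and 1519 CPM in the WT, against 1552 to 2657 CPM. In the colon the ranges of the KO PBS mice overlapped (282 to 1130 against 170 to 457 CPM), as did those of the WT LPS mice (348 to 2389 against 252 to 1020 CPM), and the 1 low-numbered KO LPS library had 2034 CPM against 293 to 648 CPM. The lower LPS changes of the SI within mice numbered 11 or above (medians of 0.04 in the WT and 0.27 in the KO on the log2 scale, against 0.59 and 1.51 over all mice) follow from that choice and support nothing. In the WT colon the median was -0.53 against 0.30, and in the KO colon 1.17 against 1.26. The mitochondrial share of counts moved with the number too, at a median of 15.4% in the 12 libraries of mice numbered 10 or below and 4.57% in the other 25. A fit of those 12 libraries alone, in groups of 1 to 3 and chosen after the data were seen, called 0 of the 7 for LPS against PBS in the WT SI, KO SI and KO colon, with medians of 1.80, 4.73 and 1.52 and 0, 7 and 1 of the 7 at an unadjusted p under 0.05. It assumes that a lone library varies like the other groups, its SI values carry the same choice, and edgeR called 1, 0 and 2 genes in all. What the number stands for is not given in the sources used here, and its part in the result was not tested.

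KO against WT gave no call among the 7 genes. After PBS the KO SI lay below the WT SI, with sums of 208 to 1301 CPM against 1519 to 2657 CPM, and Elavl4, Uchl1, Prph, Stmn2 and Syt1 did not overlap, against 0.678% of all genes. Stmn2 was at 222, 235, 176 and 25.3 CPM in KO mice 12, 15, 20 and 7 and at 272, 377 and 458 CPM (lowest, median and highest of 6) in the WT. The log2 changes were alike across the 7 genes, from -1.05 to -1.31 with a median of -1.17, against 0.00 over all genes. The edgeR adjusted p was 1 for each, with 0 of 7 called and 0% of all genes called, 0 at an unadjusted p under 0.05 and 0 called by DESeq2. Without 1 library at a time the median ran from -1.41 to -0.85.

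In the PBS colon the median change of KO against WT was -1.19 (-1.80 without KO 7), with 0 of 7 called and 0% of all genes called in edgeR. After LPS it was -0.28 in the SI (0.00 without WT 8 and -0.71 without KO 10) and -0.18 in the colon (0.56 without WT 8 and -1.10 without KO 2), with 0.0134% and 0.429% of all genes called and 0 of 7 in each. In these 3 comparisons 0 had an unadjusted p under 0.05 in edgeR and DESeq2 called 0. The KO PBS colon had the lowest median sum at 24 h, with 193, 457, 282, 170 and 1130 CPM in mice 12, 15, 1, 20 and 7. In mouse 20 Stmn2 was at 131 CPM while Elavl4 and Syt1 were each at 0.547 CPM, so that Stmn2 took 53.5% of the sum per kilobase.

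The 7 genes moved together from library to library. Over all libraries of an experiment, Pearson's r of log2 CPM between 2 of the genes ran from 0.84 to 0.94 in untreated mice (22 libraries, 21 pairs), from 0.71 to 0.98 at 2 h (16 libraries) and from 0.75 to 0.96 at 24 h (37 libraries). After the group means were removed the ranges were 0.15 to 0.70, 0.34 to 0.95 and 0.57 to 0.91. The values share library, depth and scaling, and in the first case the differences between groups, so they are given as a description only. The summed level went with that of the 13 enteric neuron identity genes, with r of 0.88, 0.89 and 0.91 in the 3 experiments. With the summed glial level r was 0.77 in untreated mice, where both fell in the SMP, but -0.11 at 2 h and -0.30 at 24 h. With the mitochondrial share of counts r was 0.78, 0.55 and 0.21 in untreated mice, at 2 h and at 24 h. After the group means were removed, r was 0.61, 0.70 and 0.84 with the identity genes in the same order. It was then 0.26, -0.48 and -0.17 with the glial level and 0.14, -0.15 and 0.42 with the mitochondrial share. The part of RNA quality was not tested.

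Of 12808 other genes tested in all 3 experiments, the 10 with the pattern most like the mean of the 7 were Stmn3, Tmem59l, Bex2, Mllt11, Faim2, Slc10a4, Celf4, Uchl1os, Sncg and Syngr3. The measure was the lowest of the 3 Pearson's r over 22, 16 and 37 libraries, and it ran from 0.94 for Stmn3 to 0.90 for Syngr3. Stmn3 is a stathmin like Stmn2, Celf4 an RNA-binding protein of neurons, Sncg gamma-synuclein and Syngr3 a synaptic vesicle protein. Uchl1os overlaps the start of Uchl1 in antisense, so reads from that stretch cannot be told apart without strand. By deviations from the group means, 5 of the 10 were again among the first 10 and 9 among the first 100.

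Per kilobase of merged exons, an approximate scale between genes, the order of the mean levels was not the same at every site. In the untreated SI MP the means were 135 ± 72.5 for Prph, 106 ± 49.2 for Uchl1, 96.4 ± 53.3 for Tubb3, 52.3 ± 25.02 for Stmn2, 35.4 ± 18.2 for Snap25, 21.7 ± 12.2 for Elavl4 and 9.03 ± 2.96 for Syt1 (CPM per kilobase, SD, n = 6). The first 3 differed by less than their spread. In the untreated colon SMP the order was Uchl1 (10.5 ± 5.07), Stmn2 (5.93 ± 2.42), Tubb3 (4.19 ± 1.72) and Prph (3.36 ± 2.31), with the means of Snap25, Elavl4 and Syt1 below 1 (CPM per kilobase, SD, n = 5). Stmn2 and Tubb3, and Tubb3 and Prph, differed by less than their spread. In the WT PBS SI at 24 h, Uchl1 (207 ± 76.2), Tubb3 (184 ± 65.2) and Prph (182 ± 47.7) were again close, and Syt1 (42.4 ± 10.5) lay above Elavl4 (29.6 ± 6.26) and Snap25 (29.0 ± 7.57). The 3 experiments were scaled separately, so levels are compared within an experiment only.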

How the data were processed

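Per the labels' protocols, RNA was isolated with the RNeasy Plus Micro Kit and cDNA was made by Smart-seq2, a method without molecular identifiers, so counts are of reads. The authors deposited 2 tables of raw counts per gene symbol. The submitters' processing notes name Trim Galore 0.4.4, STAR 2.5.3, DESeq2 and GRCm38; the counter, annotation and use of strand are not given in the sources used here. The 7 genes, the other gene lists and the alternatives were chosen with earlier results of these data known. Each experiment was analysed alone: filterByExpr, TMM, 1 model over its groups and edgeR 4.0.16 quasi-likelihood tests in R 4.3.3, two-sided. P-values were adjusted by the Benjamini-Hochberg method over all genes and called under 0.05, in 24 planned contrasts and 1 added. Each standard error is the size of the fold change divided by the square root of F, and log2 CPM used a prior count of 2. The model was tested on simulated data.

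Named in the text are the 7 genes, the 10 genes most like them in all 3 experiments without predicted genes, and examples from the lists. List examples were to be the up to 4 genes of highest mean CPM; Vamp1, Cplx1, Syt4, Rab3c, Elavl2, Slc18a3, Ret, Fabp7, Tagln and Hoxa10 were named after their values were seen. Alternatives were DESeq2 1.42.0, RLE size factors, no filter, sex as a covariate, a replicate block, only the groups compared, mouse number at 24 h, and each library left out. The labels give mouse numbers at 24 h only, where both regions of a mouse come from 1 animal and so are paired; same-mouse deviations had mean correlations of 0.0914 (WT PBS), 0.139 (WT LPS), 0.12 (KO PBS) and 0.137 (KO LPS). Elsewhere nothing states that replicates are separate animals, so p-values may measure technical spread. Promoters and genes were read with Python 3.11.15 and plots drawn with matplotlib 3.10.9. 1 gene is not reported here by name.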

Additional observations from a re-analysis of the deposited data

Results flagged for a closer look

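Of 128 sets of values (7 genes and their sum in 16 groups), 11 held a highest or lowest library far from the rest. The cut-off gives about 1 in 20 by chance for independent, normally distributed values. CPM need not be normal and the sets share libraries and genes, so that rate cannot be set against the 11. Uchl1 was at 329 CPM in untreated SI MP F1 (next 173), Syt1 at 1.45 CPM in untreated colon SMP F1 (next 0.127) and Tubb3 at 34.1 CPM in untreated SI SMP F3 (next 12.6). In 2 h LPS colon 1, Uchl1 was at 270, Prph at 428 and Syt1 at 69.1 CPM (next 88.3, 90.0 and 25.5). Uchl1 was at 653 CPM in WT LPS colon 8 (next 242) and Syt1 at 601 CPM in KO LPS colon 2 (next 91.0). In KO PBS mice, mouse 7 gave the highest colon values of Elavl4 (96.5 CPM, next 27.9) and Tubb3 (199.9 CPM, next 50.4) and the lowest SI value of Syt1 (26.1 CPM, next 167). The colon to SI difference of Stmn2 differed between the plexuses of untreated mice, with an interaction of 2.51 on the log2 scale, a call that was lost with the replicate number as a block (edgeR adjusted p = 0.0657).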

How the results depend on the processing

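All 7 genes were called lower in the SMP of the SI under every alternative, and in the 24 h average under every alternative that kept all libraries. No called change turned its direction. DESeq2 called 3 genes for colon against SI in the SMP, 3 in the region by plexus interaction, 7 and 2 for colon against SI at 2 h after PBS and LPS, and 3 for that contrast in WT LPS mice. Without a filter 2 were called at 2 h after PBS. Fits of the compared groups alone called 2 for SMP against MP in the colon, where Elavl4 and Syt1 did not pass the filter, 2 for LPS in the WT SI and 4 for colon against SI in WT PBS mice. With mice numbered 11 and above, 1 was called for colon against SI in KO PBS mice. With mice numbered 10 and below, an alternative added after the data were seen, 0 of the 7 were called in each of the 10 contrasts that could be fitted. Medians of uncalled contrasts there took the other sign for colon against SI in KO PBS mice (1.76) and for KO against WT after LPS in the SI (0.03) and colon (0.32), and that of KO against WT after PBS in the SI was -3.37, with 1 library a group. Leaving out 1 library gave 6 to 7 calls in the untreated MP, 4 to 6 for SMP against MP in the colon, 6 to 7 in the 24 h average, 0 to 1 for colon against SI in the SMP, 1 to 2 in the interaction, 0 to 2 at 2 h after PBS and 0 to 1 in WT LPS mice. The cause of these changes was not tested.

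The replicate block changed the number called from 7 to 6 in the untreated MP (Syt1, edgeR adjusted p = 0.0925), from 1 to 0 in the interaction (Stmn2, 0.0657) and from 1 to 4 at 2 h after PBS. There the samples share only a number: the mean same-number correlations were 0.0847, 0.0928 and 0.0836, with minima under 0.1, and 9 of 10, 12 of 22 and 6 of 8 samples correlated best with their own number. With the mouse as a block at 24 h no call changed. Over all genes the block gave 246 calls in place of 449 in the untreated MP, 104 in place of 29 at 2 h after PBS and 751 in place of 1151 in the 24 h average. Elavl4 and Syt1 in the colon SMP rest on 13 and 11 counts over 5 libraries.
DESeq2 called more of all genes than edgeR in the 25 contrasts, for example 1035 in place of 449 in the untreated MP, 1164 in place of 730 for colon against SI in the SMP, 577 in place of 168 in the interaction, 546 in place of 29 and 387 in place of 8 for colon against SI at 2 h after PBS and LPS, 280 in place of 144 and 298 in place of 102 for LPS at 2 h in SI and colon, and 1894 in place of 1069, 2306 in place of 1186, 535 in place of 107 and 496 in place of 107 for LPS at 24 h in WT SI, WT colon, KO SI and KO colon. Fits of the compared groups alone called 1902 in place of 3069 for SMP against MP in the colon, 63 in place of 102 for LPS in the 2 h colon, and 1704, 412, 47 and 7 for LPS at 24 h in the same order of groups.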
